A study of Mus musculus with 20 samples.

Results

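The genes described here are 8 members of the cholesterol synthesis program that is driven by the transcription factor SREBP2, namely Hmgcs1, Idi1, Fdft1, Sqle, Lss, Cyp51, Insig1, and Srebf2. They were chosen by name, and each was matched by its Ensembl identifier to 1 of the 19887 genes in the count table. RNA from the cecum of 20 C57BL/6 mice, 5 per diet and 1 library per mouse, was measured by RNASeq. All mice were 3 weeks old when they were put on the Total Western Diet (TWD), a rodent diet built to resemble typical American intake, and all ate it for 6 weeks. They then ate for 3 weeks the TWD with 0, 2, 5, or 10% raw potato starch (RPS), a resistant starch that is fermented in the cecum and colon. The mice with 0% RPS stayed on the TWD and were the controls. Sections of whole cecum were used, so that fewer cells of a type and less RNA per cell cannot be told apart in these data.

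Cholesterol is made in most cells from acetyl-CoA by the mevalonate pathway and is also taken up with lipoproteins. When sterol in the endoplasmic reticulum is low, SCAP escorts SREBP2 to the Golgi, where proteases release its active part. That part enters the nucleus and raises transcription of the synthesis enzymes, of genes of lipoprotein uptake, and of SREBP2 itself. INSIG proteins hold SCAP back when sterol is plentiful. In the intestine, newly made sterol and sterol taken up from lipoproteins both supply an epithelium that is constantly renewed.

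All 8 genes passed the filter on low counts that left 15348 genes for testing, with 456 to 17170 counts per gene and mouse. The libraries held between 14967798 and 42687283 counts, and the smallest was that of mouse 3 on 5% RPS. On GRCm39, the genes of the mevalonate arm were Hmgcs1 (ENSMUSG00000093930, chr13:120151915-120170470, forward strand) and Idi1 (ENSMUSG00000058258, chr13:8935537-8942487, forward strand). Those of the squalene and sterol arm were Fdft1 (ENSMUSG00000021273, chr14:63382189-63417027, reverse strand), Sqle (ENSMUSG00000022351, chr15:59186869-59203043, forward strand), Lss (ENSMUSG00000033105, chr10:76367298-76392976, forward strand), and Cyp51 (ENSMUSG00000001467, chr5:4123416-4154751, reverse strand). The regulators were Insig1 (ENSMUSG00000045294, chr5:28276315-28283668, forward strand) and Srebf2 (ENSMUSG00000022463, chr15:82031382-82093201, forward strand). Per kilobase of exonic length, the mean level over all mice was highest for Hmgcs1 at 57.8 CPM (counts scaled to the size of the library) per kilobase and lowest for Lss at 4.501. On this scale Idi1 stood at 34.9, Insig1 at 26.3, Srebf2 at 23.8, Fdft1 at 23.7, Cyp51 at 22.7, and Sqle at 9.24. The length is that of all annotated exons of a gene together, which lowers the value of genes with long annotated ends.

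SREBP2 binds a short sterol response element and acts together with NF-Y, which binds the CCAAT box, and Sp1, which binds GC boxes. The 250 bases upstream of the start site are shown because most of the members varied together between mice, as described further on. RefSeq (GRCm38.p6) had an entry for 6 of the 8 members, Hmgcs1, Idi1, Lss, Cyp51, Insig1, and Srebf2, and the other members without one are Sqle and Fdft1. The motifs TCACNCCAC (a form of the sterol response element), CCAAT, and GGGCGG were searched on both strands, each on its own, so that matches of different motifs may overlap. Capitals mark the matches of TCACNCCAC and of CCAAT, which reads ATTGG on the other strand. The window of Hmgcs1 is given whole (chr13:119690101-119690350). For the others a stretch around the CCAAT match nearest to the start site is given, namely chr13:8885561-8885605, chr10:76531513-76531577, chr5:4104698-4104756 (reverse strand), chr5:28071166-28071230, and chr15:82147104-82147168. Each is written 5′ to 3′ on the strand of the gene, with these coordinates on GRCm38.p6, and the genes other than Cyp51 lie on the forward strand.
Hmgcs1: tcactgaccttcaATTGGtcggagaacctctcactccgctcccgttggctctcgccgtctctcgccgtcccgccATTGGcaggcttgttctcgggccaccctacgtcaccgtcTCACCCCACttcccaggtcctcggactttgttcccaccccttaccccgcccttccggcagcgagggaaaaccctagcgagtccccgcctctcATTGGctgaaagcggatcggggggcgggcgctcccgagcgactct
Idi1: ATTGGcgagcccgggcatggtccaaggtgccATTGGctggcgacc
Lss: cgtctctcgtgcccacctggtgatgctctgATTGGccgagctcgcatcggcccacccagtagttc
Cyp51: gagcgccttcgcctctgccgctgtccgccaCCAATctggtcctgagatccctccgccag
Insig1: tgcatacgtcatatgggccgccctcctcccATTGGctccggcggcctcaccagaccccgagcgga
Srebf2: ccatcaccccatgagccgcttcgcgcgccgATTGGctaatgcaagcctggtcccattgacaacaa

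CCAAT was present in the upstream window of 6 of these 6 members and in 33.8% of all 32851 RefSeq promoter windows, and 28 of 40 genes of the wider cholesterol and fatty acid lists with an entry held it. GGGCGG was present in 6 of 6 members, in 32.7% of all windows, and in 27 of the 40 list genes. The 40 list genes include these 6 members. A list gene with several windows was counted when any of them matched, whereas the shares of all windows are per window. TCACNCCAC was rare, at 1.05% of all windows, and was found in 1 of the 6 members, Hmgcs1, at 137 to 129 bases before the start site, where it reads TCACCCCAC. Stard3, which codes for a protein of sterol transfer between membranes, was the other list gene with this match. Srebf2, which varied less closely with the other members between mice, held the CCAAT and GC motifs as well. A match describes the letters only.

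None of the 8 members passed the test between any pair of diets. At an adjusted p of at most 0.05 and a fold change of at least 1.5 (edgeR quasi-likelihood test, Benjamini-Hochberg over all tested genes), 0 of 8 passed at 10% against 0% RPS, where 1.04% of all tested genes passed. At 5% against 0% RPS it was 0 of 8 members beside 0.195% of all genes, and at 2% against 0% RPS 0 of 8 beside 0% of all genes. The unadjusted p was under 0.05 for 0 of 8 members at 10% RPS (19.5% of all genes), for 1 of 8 at 5% RPS (13.3% of all genes), and for 0 of 8 at 2% RPS (5.77% of all genes). DESeq2 also placed 0 of 8 members past the threshold in these comparisons. A linear trend over the RPS percentage passed the adjusted p for 0 of 8 members (1.11% of all genes), with 0 members at an unadjusted p under 0.05 (18.8% of all genes). The test of any difference among the 4 diets passed for 0 of 8 (0.0912% of all genes), again with 0 members at an unadjusted p under 0.05 (11.1% of all genes). Over all 6 pairs of diets, which make 48 tests of members, 0 passed and 1 had an unadjusted p under 0.05. In the pairs without 0% RPS, 0% of all genes passed, and an unadjusted p under 0.05 was found for 2.79% (10% against 5%), 4.69% (10% against 2%), and 3.39% of all genes (5% against 2% RPS). The largest absolute log2 fold change was 0.53. For 0 of 8 members did all mice on 2, 5, or 10% RPS lie on 1 side of all mice on 0% RPS, as 4.88% of all genes did at 10%, 3.57% at 5%, and 1.09% at 2% RPS. The median log2 fold change over the 8 members was -0.046 at 10%, -0.047 at 5%, and -0.13 at 2% RPS, beside 0.0041, -0.0018, and 0.0035 over all genes. The sign of these small medians was not stable, since with a smooth muscle marker score as a covariate they were 0.16, 0.23, and 0.0051. The 3 comparisons share the mice on 0% RPS.

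**Figure D1:**
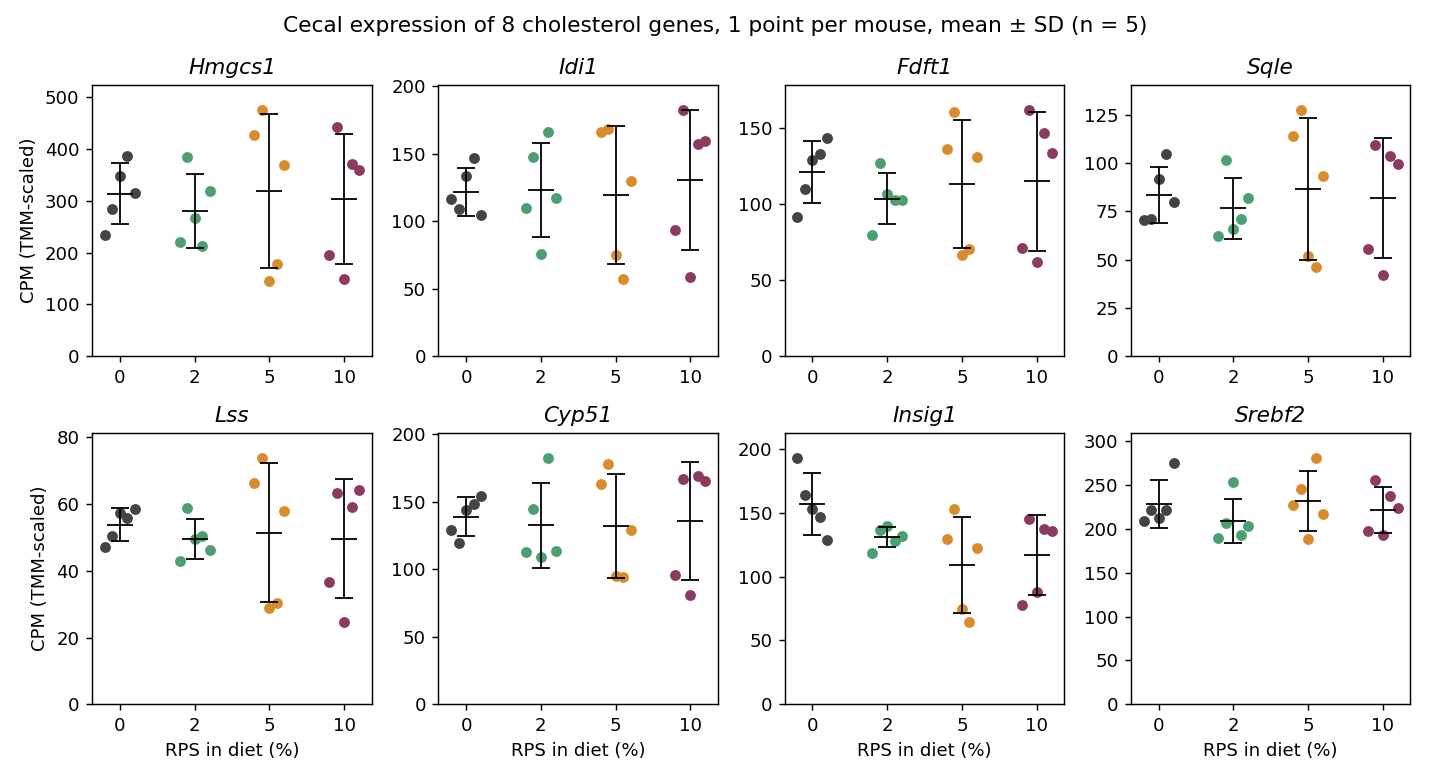
Expression of the 8 genes in CPM (vertical axes, each from 0) by percentage of RPS in the diet (horizontal axes). Each point is 1 mouse, and the bars give mean ± SD of the 5 mice per diet. The mice on 5 and 10% RPS spread wider than those on 0% RPS for each gene other than Srebf2, while the means lie close together for each gene other than Insig1, whose means on 2, 5, and 10% RPS lie below that on 0% RPS.

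Hmgcs1 codes for the cytosolic HMG-CoA synthase, which makes HMG-CoA at the start of the mevalonate pathway. Mice 1 to 5 on 0% RPS had 235, 285, 348, 387 and 315 CPM. Those on 2% RPS had 220.2, 384, 267, 213 and 318 CPM. Mice 1 and 4 on 2% RPS lay below the 0% mice and the other 3 were among them. On 5% RPS the mice had 427, 476, 145, 178 and 369 CPM. On 10% RPS they had 196, 443, 149, 371 and 359 CPM. Mice 3 and 4 on 5% RPS and mice 1 and 3 on 10% RPS lay below every mouse on 0% RPS, whereas mice 1 and 2 on 5% and mouse 2 on 10% RPS lay above them all. The means were 319 ± 149 CPM on 5%, 314 ± 58.4 on 0%, 304 ± 125 on 10%, and 281 ± 71.8 on 2% RPS (SD, n = 5), and no neighbours in this order differed beyond their spread. The log2 fold change at 10% against 0% RPS was -0.049 (SE 0.32, edgeR adjusted p = 0.955), with a 95% interval of -0.73 to 0.63.

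Idi1 codes for isopentenyl diphosphate isomerase, which converts the first isoprenoid unit into the second. It had 116, 109, 133, 147 and 105 CPM in mice 1 to 5 on 0% RPS. It had 109.8, 148, 75.5, 166 and 118 CPM on 2% RPS. Mouse 3 on 2% RPS was below and mice 2 and 4 were above the whole range of the 0% mice. The values were 166, 168, 75.1, 57.6 and 129.8 CPM on 5% RPS. They were 93.8, 183, 59.1, 158 and 159 CPM on 10% RPS. No mouse on 10% RPS lay inside the range of the 0% mice, since mice 1 and 3 were below it and mice 2, 4, and 5 above it. The means were 122 ± 17.8 CPM on 0%, 123 ± 35.1 on 2%, 119 ± 51.1 on 5%, and 131 ± 51.9 on 10% RPS (SD, n = 5). At 10% against 0% RPS its log2 fold change was 0.10 (SE 0.31, edgeR adjusted p = 0.901), with a 95% interval of -0.56 to 0.75.

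Fdft1 codes for squalene synthase, the first enzyme that commits isoprenoids to sterols. On 0% RPS the mice had 91.3, 109, 129, 133 and 143 CPM. On 2% RPS they had 79.4, 127, 107, 102 and 102 CPM. Mouse 1 on 2% RPS was below the 0% mice and the other 4 were among them. On 5% RPS they had 136, 160.4, 66.6, 70.7 and 131 CPM. On 10% RPS they had 70.8, 162, 61.7, 146 and 134 CPM. The same 4 mice as for Hmgcs1 (mice 3 and 4 on 5%, mice 1 and 3 on 10% RPS) lay below every 0% mouse, and mouse 2 on 5% and mice 2 and 4 on 10% RPS lay above them. The means were 121 ± 20.6, 103 ± 16.8, 113 ± 42.0, and 115 ± 45.7 CPM on 0, 2, 5, and 10% RPS (SD, n = 5). The log2 fold change was -0.075 at 10% and -0.23 at 2% against 0% RPS (SE 0.27 for both, edgeR adjusted p = 0.914 and 0.963).

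Sqle codes for squalene epoxidase, which adds oxygen to squalene and is a further rate-controlling step. On 0% RPS it had 70.4, 71.0, 91.4, 105 and 79.6 CPM. On 2% RPS it had 62.4, 101, 65.8, 70.8 and 82.0 CPM. Mice 1 and 3 on 2% RPS were below the 0% mice. On 5% RPS it had 114, 128, 51.9, 45.9 and 93.0 CPM. On 10% RPS it had 55.3, 109, 42.1, 104 and 99.3 CPM. Mice 1 and 2 on 5% and mouse 2 on 10% RPS were above all 0% mice, and mice 3 and 4 on 5% and 1 and 3 on 10% RPS were below them. The means were 83.4 ± 14.6, 76.4 ± 15.8, 86.5 ± 36.5, and 82.0 ± 30.9 CPM on 0, 2, 5, and 10% RPS (SD, n = 5). Its log2 fold change at 10% against 0% RPS was -0.026 (SE 0.28, edgeR adjusted p = 0.978), with a 95% interval of -0.62 to 0.57.

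Lss codes for lanosterol synthase, which closes the sterol rings. On 0% RPS it had 47.3, 50.3, 57.2, 55.9 and 58.5 CPM. On 2% RPS it had 43.02, 58.9, 49.6, 50.4 and 46.2 CPM. Both diets were narrow, with mice 1 and 5 on 2% RPS below the 0% mice and mouse 2 just above them. On 5% RPS it had 66.2, 73.9, 28.9, 30.3 and 57.8 CPM. On 10% RPS it had 36.8, 63.2, 24.7, 59.2 and 64.1 CPM. Mouse 5 on 5% RPS was the only one of these 10 mice within the range of the 0% mice. The means were 53.8 ± 4.83, 49.6 ± 5.98, 51.4 ± 20.7, and 49.6 ± 17.8 CPM on 0, 2, 5, and 10% RPS (SD, n = 5). Against 0% RPS, the fitted log2 fold change at 10% was -0.12 (SE 0.26, edgeR adjusted p = 0.845), with a 95% interval of -0.66 to 0.42.

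Cyp51 codes for lanosterol 14-alpha-demethylase, the first step after lanosterol. On 0% RPS it had 129, 119, 144, 149 and 154 CPM. On 2% RPS it had 113, 144, 109, 183 and 114 CPM. Mouse 4 on 2% RPS was the highest of all 20 mice for this gene. On 5% RPS it had 163, 178, 94.8, 94.4 and 129 CPM. On 10% RPS it had 95.7, 167, 81.0, 169.5 and 166 CPM. All 5 mice on 10% RPS lay outside the range of the 0% mice, mice 1 and 3 below and the others above. The means were 139 ± 14.49, 132 ± 31.5, 132 ± 38.5, and 136 ± 43.7 CPM on 0, 2, 5, and 10% RPS (SD, n = 5). Relative to 0% RPS, Cyp51 at 10% had a log2 fold change of -0.034 (SE 0.22, edgeR adjusted p = 0.955), with a 95% interval of -0.49 to 0.42.

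Insig1 codes for the sterol-dependent anchor that keeps SCAP and SREBP2 in the endoplasmic reticulum and that is itself a target of SREBP2. It was the member with the lowest levels on RPS relative to 0% RPS. On 0% RPS the mice had 193, 164, 153, 147 and 128 CPM. On 2% RPS they had 119, 136, 139, 128 and 132 CPM. The 2% mice were close together and below the median of the 0% mice. On 5% RPS they had 129.9, 153, 74.9, 64.7 and 122 CPM. On 10% RPS they had 78.0, 145, 88.1, 137 and 136 CPM. No mouse on 2, 5, or 10% RPS exceeded the second highest mouse on 0% RPS, and the ranges overlapped in each comparison. The means were 157 ± 24.0 CPM on 0%, 131 ± 8.01 on 2%, 117 ± 31.2 on 10%, and 109 ± 37.7 on 5% RPS (SD, n = 5). At 5% against 0% RPS the log2 fold change was -0.53 (SE 0.21, 95% interval -0.95 to -0.10), with an unadjusted p of 0.0192 and an edgeR adjusted p of 0.252, which did not pass. With the smooth muscle marker score as a covariate it was -0.15 (adjusted p = 0.781), and over the other processing settings the adjusted p ranged from 0.149 to 0.372. At 10% RPS the log2 fold change was -0.43 (SE 0.21, edgeR adjusted p = 0.261), and at 2% RPS it was -0.26 (SE 0.21, edgeR adjusted p = 0.925). The trend was -0.0397 on the log2 scale per 1% RPS (SE 0.0194, edgeR adjusted p = 0.270). Over the alternative settings with all mice, the log2 fold change ran from -0.43 to -0.12 at 10% and from -0.27 to -0.088 at 2% RPS. The smallest slope among these settings was -0.00768.

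Srebf2 codes for SREBP2 itself. On 0% RPS the mice had 209, 222, 213, 222 and 275 CPM. On 2% RPS they had 189, 206, 253, 193 and 203 CPM. Mice 1, 2, 4, and 5 on 2% RPS lay below the 0% mice. On 5% RPS they had 228, 245, 189, 281 and 217 CPM. On 10% RPS they had 198, 255, 193, 237 and 224 CPM. The groups overlapped, and the highest of all 20 mice, mouse 4 on 5% RPS, was among the lowest for the other 7 members. The means were 232 ± 34.3 CPM on 5%, 228 ± 27.0 on 0%, 221 ± 26.5 on 10%, and 209 ± 25.5 on 2% RPS (SD, n = 5). The log2 fold change at 10% against 0% RPS was -0.042 (SE 0.11, edgeR adjusted p = 0.875), with the narrowest 95% interval among the members, -0.27 to 0.19.

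**Figure D2:**
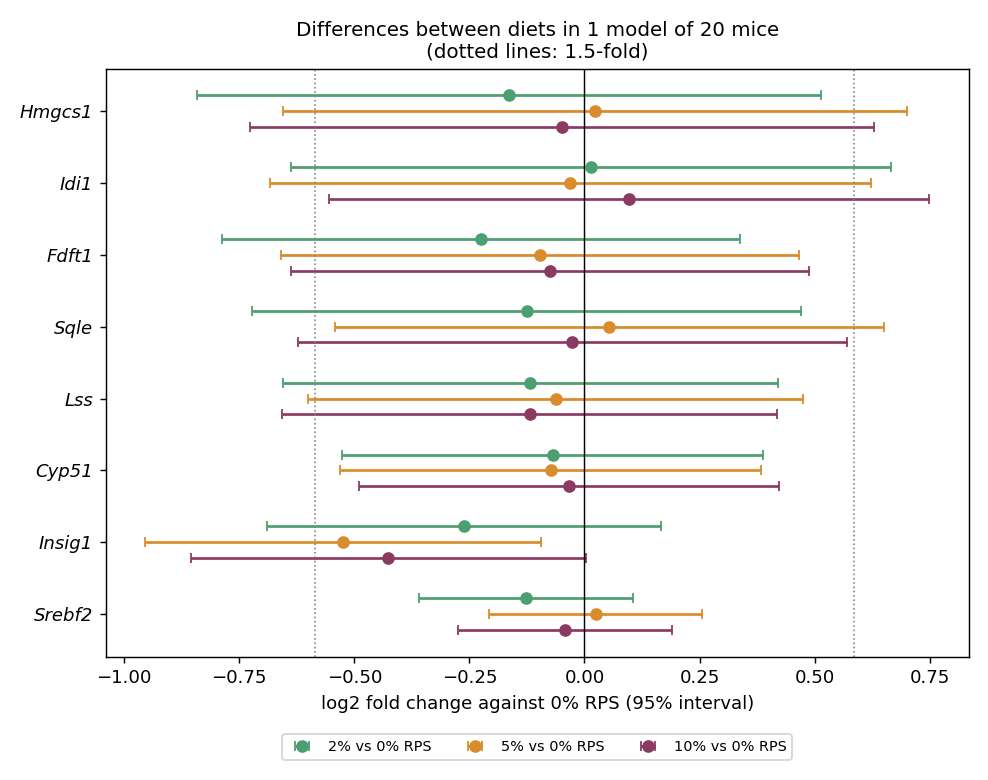
Log2 fold change of each member at 2, 5, and 10% against 0% RPS (points) with 95% intervals (lines), from 1 model of 20 mice. Dotted lines mark a 1.5-fold change. All intervals include 0 apart from that of Insig1 at 5% RPS, -0.95 to -0.10, before adjustment over all genes.

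The intervals set what the absence of a call means for these genes. At 10% against 0% RPS the intervals of Srebf2 and Cyp51 lay within a 1.5-fold change in both directions. That of Hmgcs1 reached past a 1.5-fold change in both directions, those of Fdft1, Sqle, Lss, and Insig1 only toward lower levels, and that of Idi1 only toward higher levels, so that changes of that size in those directions were not excluded. Counting error was small beside this spread, since the lowest count of any member in any mouse was 456.

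The members also differed in how far mice on the same diet spread. The SD of log2 CPM over the 5 mice, as a median over the 8 members, was 0.211 on 0%, 0.261 on 2%, 0.613 on 5%, and 0.615 on 10% RPS. The same median over all 15348 tested genes was 0.234, 0.241, 0.229, and 0.173. An SD above 0.5 was found for 0 members on 0% and 2% RPS, against 16.1% and 15.4% of all genes, and for 6 of 8 on both 5% and 10% RPS, against 13.6% and 11.4% of all genes. For Hmgcs1 the SD went from 0.28 on 0% RPS over 0.36 on 2% to 0.78 on 5% and 0.68 on 10% RPS. For Lss it was 0.13, 0.17, 0.64, and 0.61, and for Insig1 0.22, 0.090, 0.54, and 0.42. Srebf2 kept a low SD on every diet, 0.16, 0.17, 0.21, and 0.17. Among all genes ranked by SD on the same diet, the 7 other members lay between the 21.1 and 59.1 percentiles on 0% RPS and between the 84.1 and 94.2 percentiles on 10% RPS. With any 1 mouse left out, the members' median SD stayed between 0.552 and 0.683 on 5%, between 0.421 (without mouse 3) and 0.663 on 10%, and between 0.166 and 0.235 on 0% RPS. The difference in spread was noticed in these data and is given as a description, with no test.

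**Figure D3:**
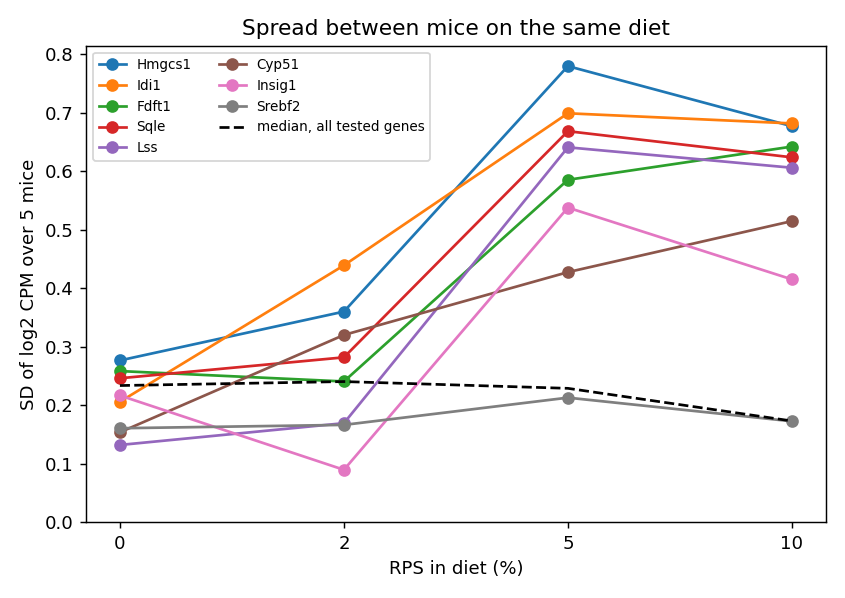
SD of log2 CPM over the 5 mice of a diet (vertical axis) for each member (colored lines) and its median over all tested genes (dashed line). Diets are evenly spaced on the horizontal axis. The lines of all members other than Srebf2 lie above the dashed line on 5 and 10% RPS, while those on 0% RPS lie around it.

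Much of the spread on 5 and 10% RPS was shared. For 6 of the 8 members, Hmgcs1, Fdft1, Sqle, Lss, Cyp51, and Insig1, the 4 lowest of all 20 mice were mice 3 and 4 on 5% RPS and mice 1 and 3 on 10% RPS. Mouse 3 on 5% and mouse 3 on 10% RPS were among the lowest 4 for 8 of 8 members, mouse 4 on 5% for 7, and mouse 1 on 10% for 6. Mouse 2 on 5% and mouse 2 on 10% RPS were among the highest 4 for 7 members each. The highest mouse exceeded the lowest by 3.28-fold for Hmgcs1, 3.17-fold for Idi1, 3.03-fold for Sqle, 2.99-fold for Lss, 2.98-fold for Insig1 (whose highest mouse was mouse 1 on 0% RPS), 2.63-fold for Fdft1, 2.26-fold for Cyp51, and 1.49-fold for Srebf2. Over the 20 mice, the 21 pairs among the 7 members without Srebf2 had Pearson r of log2 CPM from 0.663 (Insig1 and Cyp51) to 0.968 (Hmgcs1 and Sqle), with a median of 0.876. After each diet's mean was removed, the median was 0.882, and with any 1 mouse left out it was 0.840 to 0.917. The 7 pairs with Srebf2 had r from 0.0133 (with Idi1) to 0.481 (with Fdft1), and the median r of a member with any other tested gene was 0.00721. Within single diets of 5 mice, the median r of the 21 pairs was 0.671 on 0%, 0.518 on 2%, 0.981 on 5%, and 0.981 on 10% RPS. The lowest r of a pair was -0.973 on 0% RPS (Insig1 and Fdft1) and -0.276 on 2% RPS (Insig1 and Idi1). It was 0.943 on 5% and 0.875 on 10% RPS. On 0% RPS Insig1 went from 193 CPM in mouse 1 down to 128 in mouse 5, while Fdft1 went from 91.3 up to 143. All these genes share their libraries and their scaling within a mouse, so the r values are descriptions.

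**Figure D4:**
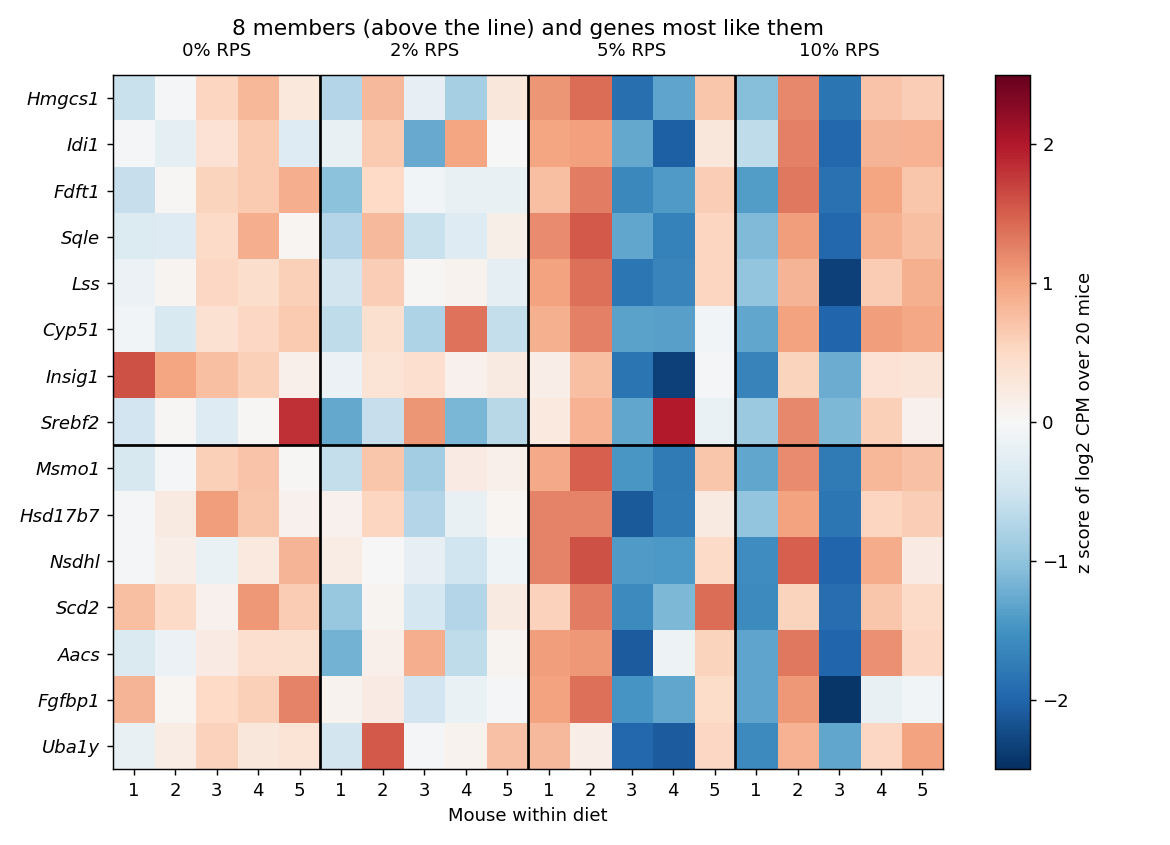
Level of each gene (rows) in each mouse (columns, grouped by diet) as z score of log2 CPM over the 20 mice, red high and blue low. The members stand above the horizontal line and 7 of the 10 genes most like them below it. Mice 3 and 4 on 5% RPS and mice 1 and 3 on 10% RPS are blue in nearly all rows, with Srebf2 in mouse 4 on 5% RPS as the red exception.

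The genes whose levels ran most like those of the members included several other genes of the same pathway. Likeness was measured as Pearson r, over 20 mice, with the mean z score of log2 CPM of the 8 members, and its median over the 15340 other tested genes was 0.0125 with a 95th percentile of 0.481. The 10 highest r included those of Msmo1 (0.959), Hsd17b7 (0.936), and Nsdhl (0.926). Msmo1, Hsd17b7, and Nsdhl code for enzymes that take part in the demethylation of sterols. Scd2 (0.888), a fatty acid desaturase, Aacs (0.886), which makes acetoacetyl-CoA for lipid synthesis, Fgfbp1 (0.886), a carrier of fibroblast growth factors, and Uba1y (0.863), a ubiquitin-activating enzyme, were also among them. Uba1y has a close copy, Uba1, so its counts are uncertain. The lowest r were those of Unkl (-0.804), Npas2 (-0.757), Zscan20 (-0.754), Peli2 (-0.749), and Pld2 (-0.731).

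Of the 48 tested genes on the wider pathway lists that are not members, 14 were among the 100 genes most like the members. That is 29.2% of the list genes and 14% of the 100 genes, whereas the list genes make up 0.313% of all other tested genes. By function, they were 9 of 14 synthesis genes (among them Acat2, Mvk, Mvd, Fdps, Msmo1, Nsdhl, Hsd17b7, and Sc5d), 2 of 13 uptake and transport genes (among them Stard4), 1 of 9 regulators, 2 of 6 fatty acid genes (Elovl6 and Scd2), and 0 of 6 genes of efflux and storage. Some genes were less alike, with r of 0.303 for the late synthesis gene Ebp, as were Srebf1 (0.482), Insig2 (0.358), and Scap (-0.00484). Negative r were found among the other lists, with -0.569 for Soat1, which esterifies cholesterol, -0.483 for Mylip, a ubiquitin ligase, and -0.474 for the exporter Abcg1. The efflux and storage list did not run one way, since r was 0.495 for Nr1h3 and 0.00967 for Soat2, which also esterifies cholesterol.

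**Figure D5:**
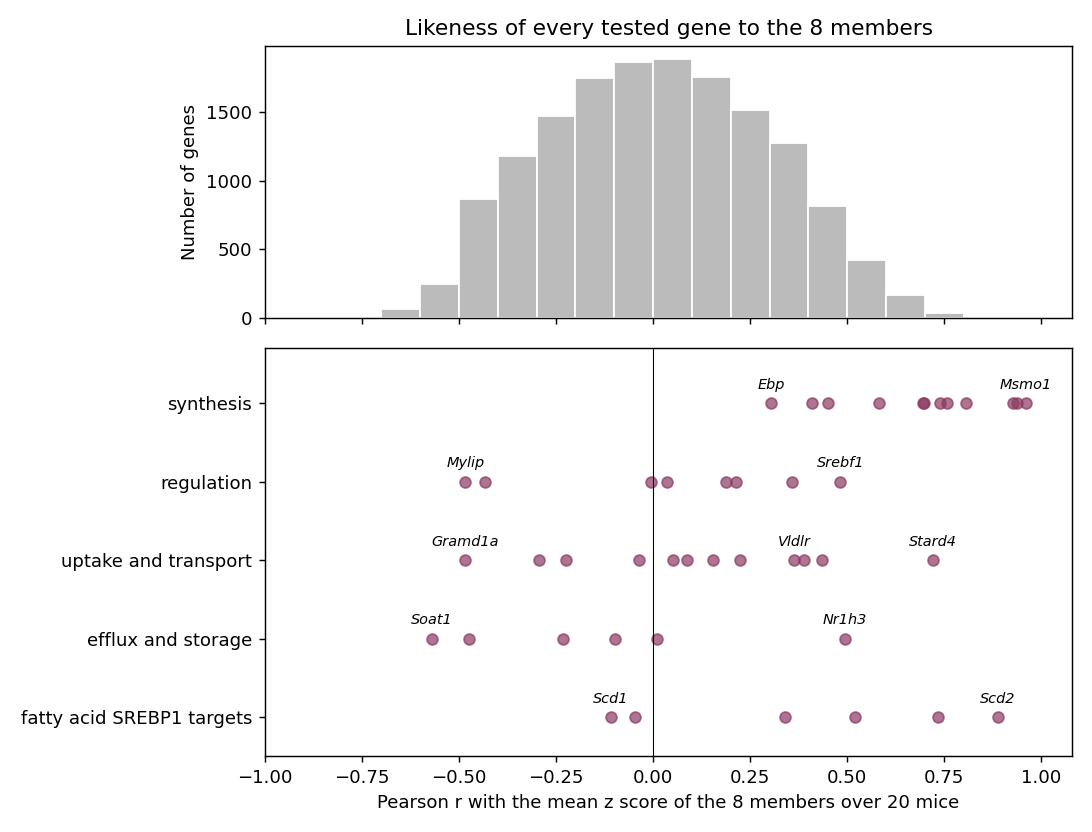
Pearson r with the mean z score of the 8 members over 20 mice (horizontal axis) for all other tested genes (upper panel, number of genes per bin of 0.1) and for the genes of 5 lists (lower panel, 1 point per gene reported here). Synthesis genes all lie above 0 and reach 0.959, while efflux and storage genes lie on both sides, from -0.569 to 0.495.

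Measures of tissue makeup and depth also moved with the members to a lesser degree. The 7 epithelial markers were all detected, and their summed level ranged from 9106 to 11332 CPM on 0%, 9484 to 13135 on 2%, 8659 to 10157 on 5%, and 8331 to 11822 on 10% RPS, with r of 0.426 with the members over the 20 mice. The 5 smooth muscle markers ranged from 2196 to 5331 CPM on 0%, 2855 to 5002 on 2%, 3693 to 8383 on 5%, and 3613 to 5690 on 10% RPS, with r of -0.402. For smooth muscle, 5 of 5 markers had a higher fitted level at 5% than at 0% RPS, each with an unadjusted p under 0.05 (13.3% of all genes), and at 10% RPS 5 of 5 were higher with 3 under 0.05 (19.5% of all genes). In both comparisons 0 of 5 passed the edgeR threshold. Of the other lists, 4 of 4 adipocyte markers had a lower fitted level at 10% and at 5% RPS (median log2 fold change -0.84 and -0.51, 1 with an unadjusted p under 0.05 in each), and 5 of 5 B cell markers a higher one (median 1.90 and 0.34, 0 with an unadjusted p under 0.05), with 0 past the threshold. The lowest and highest summed level of the adipocyte markers was 63.3 and 127 CPM on 0%, 37.7 and 148 on 2%, 38.0 and 77.6 on 5%, and 21.5 and 121 on 10% RPS. Only 1 of 7 epithelial markers had a higher fitted level at 10% and 1 at 5% RPS (median log2 fold change -0.13 and -0.15). For macrophages it was 4 and 4 of 4 markers (median 0.24 and 0.26), and for T cells 3 and 2 of 4. For neurons and glia it was 0 and 1 of 5, for proliferation 3 and 2 of 4, and for liver 1 and 0 of 2, with 0 past the threshold. The r with the members was -0.427 for 5 B cell markers, -0.378 for 4 T cell markers, -0.351 for 4 macrophage markers, 0.222 for 4 adipocyte markers, 0.198 for 5 markers of enteric neurons and glia, and 0.102 for 4 proliferation markers. Of 3 liver markers Alb was below the filter, and the r of the list was -0.0211. The r with log2 total count was 0.336. Their part in the members' variation was not tested.

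Among all 56 tested genes of the pathway lists, members included, 1 passed the threshold at 10% against 0% RPS, Vldlr. This is 1.79% of the list genes beside 1.04% of all genes. None of the 56 passed at 5% or 2% against 0% RPS, with 4 and 2 at an unadjusted p under 0.05, which is 7.14% and 3.57% of them beside 13.3% and 5.77% of all genes. Vldlr codes for the VLDL receptor, which takes up lipoproteins rich in triglyceride, and it fell. It had 28.0, 31.0, 37.3, 26.0 and 29.0 CPM on 0% RPS and 18.6, 18.6, 16.2, 24.4 and 20.2 CPM on 10% RPS. Every mouse on 10% RPS lay below every mouse on 0% RPS. These 2 diets were fully apart, in either direction, for 4.88% of all genes. The means of Vldlr were 30.3 ± 4.34, 24.9 ± 5.72, 22.7 ± 3.31, and 19.6 ± 3.04 CPM on 0, 2, 5, and 10% RPS (SD, n = 5), so that the mean was lower at each higher dose. At 10% RPS its log2 fold change was -0.63 (SE 0.14, edgeR adjusted p = 0.0316), and the trend was -0.0584 per 1% RPS (edgeR adjusted p = 0.0394). With the epithelial marker score as a covariate the adjusted p was 0.0912 and the log2 fold change -0.57. With the smooth muscle marker score they were 0.116 and -0.42. The 4 adipocyte markers also had lower fitted levels at 10% RPS, as given above, and their part in the result for Vldlr was not tested. The call of Vldlr stood with the DESeq2 Wald test (adjusted p = 0.00244) and with DESeq2 size factors in edgeR (adjusted p = 0.0302). It also stood without a filter (edgeR adjusted p = 0.0354), with the stricter filter (0.0290), and in a fit of only these 2 diets (0.0378). Leaving out 1 mouse ended the call for 7 of the 10 mice, while the log2 fold change stayed between -0.71 and -0.54. The edgeR adjusted p was 0.0764, 0.0533, and 0.0575 without mice 3, 4, and 5 on 0% RPS, and 0.0962, 0.0665, 0.108, and 0.0597 without mice 1, 2, 3, and 5 on 10% RPS.

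Ebp, the sterol isomerase of the late pathway, passed the adjusted p but not the fold change. It had 73.3, 75.1, 76.6, 77.4 and 87.0 CPM on 0% RPS and 56.9, 65.9, 57.7, 67.9 and 61.3 CPM on 10% RPS. The mice on 10% RPS and those on 5% RPS all lay below every mouse on 0% RPS. Such a separation, in either direction, was found for 4.88% of all genes at 10% and 3.57% at 5% RPS. The means of Ebp were 77.9 ± 5.36, 65.4 ± 5.73, 65.1 ± 4.24, and 61.9 ± 4.88 CPM on 0, 2, 5, and 10% RPS (SD, n = 5). On the log2 scale the fold change was -0.33 at 10% (SE 0.074, edgeR adjusted p = 0.0289), -0.26 at 5% (adjusted p = 0.106), and -0.25 at 2% RPS (adjusted p = 0.712). The DESeq2 Wald test gave an adjusted p of 0.00218 at 10% RPS. With 1 mouse left out, the log2 fold change at 10% RPS stayed between -0.36 and -0.27. Leaving out 1 mouse raised the edgeR adjusted p of Ebp at 10% RPS above 0.05 in 7 of 10 cases. It was 0.0649, 0.0680, and 0.0753 without mice 3, 4, and 5 on 0% RPS, and 0.111, 0.0505, 0.108, and 0.0658 without mice 1, 2, 3, and 5 on 10% RPS. With the epithelial marker score as a covariate it was 0.0772 at a log2 fold change of -0.26, with the smooth muscle marker score 0.0720 at -0.34, and in a fit of only these 2 diets 0.0619 at -0.32. Vldlr and Ebp had r of only 0.363 and 0.303 with the members over the 20 mice.

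At 10% against 0% RPS the fitted level was higher for 4 and lower for 16 of 20 synthesis genes (median log2 fold change -0.030), from -0.33 for Ebp to 0.10 for Idi1. It was higher for 3 and lower for 8 of 11 regulators (median -0.071), from -0.43 for Insig1 to 0.36 for Mylip. It was higher for 5 and lower for 8 of 13 uptake and transport genes (median -0.035), from -0.63 for Vldlr to 0.30 for Lrp8, a related receptor. For efflux and storage it was 3 and 3 of 6 (median -0.0021), from -0.39 for Nr1h3, which codes for the sterol sensor LXR-alpha, to 0.28 for the exporter Abca1. For fatty acid genes it was 1 and 5 of 6 (median -0.11), from -0.95 for the desaturase Scd1 (SE 0.86) to 0.089 for Acly. The median over all genes was 0.0041. Only Vldlr and Ebp among these had an edgeR adjusted p of at most 0.05, as 1.86% of all genes did.

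For the other SREBP gene and its partners, the log2 fold change at 10% RPS was -0.065 for Srebf1 (edgeR adjusted p = 0.750), -0.13 for Scap (adjusted p = 0.447), and -0.11 for Insig2 (adjusted p = 0.641). Npc1l1, the transporter that absorbs cholesterol in the small intestine, was near the floor of detection, at 0.303 ± 0.0788 CPM on 0% and 0.285 ± 0.189 CPM on 10% RPS. Rnf139, Abcg5, and Abcg8, with at most 13, 5, and 3 counts in any mouse, were below the filter and were not tested.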

How the data were processed

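Cecal RNASeq libraries of 20 mice (4 diets, 5 mice each) were compared. The labels gave the diet of every mouse, and mice were numbered 1 to 5 within a diet. The authors deposited raw read counts per gene. Their poly(A) libraries were stranded and read from a single end. Low-quality nucleotides and reads with several ambiguous bases were removed, and the remainder was mapped to GRCm39 and counted in the CLC Genomics Workbench. The handling of reads shared by several genes is not given in the sources used here, so counts of genes with close copies are uncertain. The labels do not say how mice were housed, and p-values measure the spread between these mice.

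Gene symbols, coordinates, and exon lengths came from GENCODE M39, which held 19827 of 19887 identifiers. Tests used edgeR 4.0.16 with limma 3.58.1, under R 4.3.3. Genes were filtered with filterByExpr (minimum count 10, minimum total 15), which kept 15348 genes. Counts were scaled by TMM, and 1 robust quasi-likelihood model was fitted to the 4 diets, with contrasts between diets and a test of any difference. The linear trend came from a separate fit of the same kind on the RPS percentage, with its own estimate of spread. P-values were adjusted by Benjamini-Hochberg over all tested genes. A gene passed at an adjusted p of at most 0.05 and a 1.5-fold change (adjusted p alone for the trend and the test of any difference). CPM used TMM-scaled library sizes, and log2 CPM a prior count of 2. Named genes were the 8 members, fixed pathway genes (Insig2, Srebf1, Scap, and Npc1l1 among them), list genes past the threshold, the extremes of each list, and the 10 genes most like and 5 least like the members. Some genes named by this rule are not reported here, though counts, medians, and ranges over lists include them. Other genes with values were named after their values were seen. The members and lists were chosen with earlier results of these data known. Alternatives were DESeq2 1.42.0 and its size factors, other filters, no robust estimation, marker scores as covariates, fits of 2 diets, no fold change threshold, ranks of the dose, and leaving out each mouse. The script was tested on simulated data.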

Additional observations from a re-analysis of the deposited data

Results flagged for a closer look

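In 84 groups of 5 mice (21 pathway genes on 4 diets), 8 had a highest or lowest mouse whose gap to its neighbour exceeded 0.71 of the range, Dixon's limit, and chance gives about 1 in 20. For Srebf2, mouse 5 on 0% RPS had 275 CPM with the next mouse at 222, and mouse 3 on 2% RPS had 253 CPM with the next at 206. For Srebf1, mouse 3 on 2% RPS also stood above its group, at 79.6 CPM beside 65.9. Scap, which escorts both SREBPs, was high in mouse 5 on 0% RPS (110.05 CPM, next 89.9) and in mouse 4 on 5% RPS (101.8 CPM, next 80.3). The latter mouse was also the highest of all 20 for Srebf2. Insig2 was low in mouse 1 on 10% RPS (53.0 CPM, next 59.4). Npc1l1 was high in mouse 2 on 0% RPS (0.438 CPM, next 0.293), which rests on few counts. Ebp was high in mouse 4 on 2% RPS (75.6 CPM, next 63.8).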

How the results depend on the processing

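The count of members past the threshold was 0 in each of the 6 pairs of diets, the trend, and the test of any difference under every alternative that was run for them, leaving out each mouse included. The count of pathway genes past the threshold at 10% against 0% RPS was 1, and became 0 with the epithelial marker score and 0 with the smooth muscle marker score as a covariate (the latter chosen after seeing the data), and 2 without a fold change threshold. Leaving out 1 mouse gave 0 to 1. The log2 fold change of Insig1 kept its sign, from -0.68 to -0.39 at 5% against 0% RPS with 1 mouse left out, and was -0.15 with the smooth muscle score. DESeq2 placed 359 genes past the threshold at 10%, 245 at 5%, and 5 at 2% RPS over all genes, where edgeR placed 160, 30, and 0. With the epithelial score as a covariate the counts were 15, 3, and 0, with the smooth muscle score 4, 0, and 0, and in fits of only the 2 diets compared 98, 65, and 0. With single mice left out, the count at 10% RPS was lowest at 11 when mouse 3 on 10% RPS was absent and highest at 343 when mouse 2 on 0% RPS was. At 5% RPS it was lowest at 0 when mouse 5 on that diet was absent and highest at 112 when mouse 1 was, and at 2% RPS it was 0 in each such fit. The cause was not tested.

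Small fold changes, none of them called, changed sign. With the epithelial score as a covariate, the log2 fold change at 10% RPS became 0.051 for Hmgcs1, 0.085 for Sqle, 0.026 for Srebf2, 0.065 for Fdft1, and 0.14 for Cyp51. At 5% RPS it became 0.10 for Idi1, 0.027 for Lss, 0.029 for Fdft1, and 0.068 for Cyp51, and at 2% RPS -0.0052 for Idi1. The slopes per 1% RPS became 0.00319 for Lss, 0.0142 for Fdft1, and 0.0181 for Cyp51. With the smooth muscle score, the log2 fold change at 10% RPS became 0.19 for Hmgcs1, 0.27 for Sqle, 0.13 for Lss, 0.091 for Fdft1, 0.19 for Cyp51, and 0.044 for Insig2. At 5% RPS it became -0.089 for Srebf2, 0.47 for Idi1, 0.25 for Lss, 0.11 for Fdft1, and 0.21 for Cyp51, and at 2% RPS 0.054 for Sqle, 0.018 for Lss, and 0.040 for Cyp51. The slopes became -0.00671 for Srebf2, 0.0119 for Lss, 0.0147 for Fdft1, and 0.0178 for Cyp51. The median over the members was 0.058 at 10% and 0.072 at 5% RPS with the epithelial score, against 0.16 and 0.23 with the smooth muscle score and -0.046 and -0.047 with neither, and with 1 mouse left out it ran from -0.19 to 0.096 and from -0.20 to 0.088. With at least 10 counts in every mouse the slope of Fdft1 was 4.43e-05. With 1 mouse left out, the log2 fold change at 10% RPS ran from -0.12 to 0.11 for Cyp51, -0.23 to 0.085 for Fdft1, -0.23 to 0.13 for Hmgcs1, -0.056 to 0.29 for Idi1, -0.22 to 0.055 for Lss, -0.40 to 0.19 for Npc1l1, -0.15 to 0.14 for Sqle, and -0.10 to 0.047 for Srebf2. At 5% RPS it ran from -0.21 to 0.024 for Cyp51, -0.26 to 0.042 for Fdft1, -0.17 to 0.21 for Hmgcs1, -0.19 to 0.14 for Idi1, -0.23 to 0.084 for Lss, -0.13 to 0.21 for Sqle, and -0.059 to 0.11 for Srebf2, and at 2% RPS from -0.12 to 0.15 for Idi1. The slopes ran from -0.0108 to 0.0116 for Cyp51, -0.0161 to 0.0145 for Fdft1, -0.0150 to 0.0188 for Hmgcs1, -0.00670 to 0.0267 for Idi1, -0.0185 to 0.00839 for Lss, -0.00877 to 0.0196 for Sqle, and -0.00421 to 0.00780 for Srebf2.

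No paired analysis was possible because the animal identifiers in the labels are each used once, and the numbers 1 to 5 given here only name the mice of a diet. With at least 456 counts for each member in each mouse, counting error was small beside the spread between mice. Depth limits Npc1l1, whose values rest on few counts.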

Other observations

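Npas2, a core activator of the circadian clock, was the tested gene with the next to lowest likeness to the members (r of -0.757 over the 20 mice, -0.753 after each diet's mean was removed). Other clock genes, a list chosen after these values were seen, were therefore read out as well. Bmal1, the partner of Npas2 and Clock, had r of -0.570. Genes that peak opposite to Bmal1 had positive r of unlike size. It was 0.667 for Ciart, 0.624 for Tef, 0.562 for Dbp, 0.553 for Nr1d2, 0.521 for Per2, and 0.505 for Per3. For Nr1d1 (0.346) and Per1 (0.247) it was below the 95th percentile of all other tested genes, 0.481. The r was 0.0961 for Cry1 and 0.0130 for Clock. Dbp ranged from 3.27 to 55.8 CPM and Npas2 from 17.6 to 56.4 CPM over the 20 mice. The labels give no time of collection, and the points share their libraries. The part of the clock in the members' variation was not tested.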
